A study of Mus musculus with 18 samples.

Results

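Liver RNA levels of 10 genes of lipid uptake, storage and transport (Cd36, Lpl, Vldlr, Plin2, Cidec, Cidea, Fabp4, Pparg, Mogat1 and Apoa4) were examined on 18 Affymetrix arrays, each hybridized with RNA of 1 female B6C3F1 mouse. The members were taken by name: a probe set belonged to a member if the platform annotation gave it that symbol and no other, which gave 22 probe sets for the 10 genes, and each gene was represented by its brightest probe set on average. Of these genes, 7 passed the filter on dim probe sets and were among the 12169 genes tested, and Cidec, Cidea and Mogat1 did not pass. The mice, hybrids common in cancer bioassays, were 5 weeks old at the start and 18 weeks old at death, and each group held 3 animals. For 13 weeks, 7 days per week, 1 group was fed 1,5-naphthalenediamine at 2000 ppm, which the submitters class as a positive liver carcinogen. Feed with 2000 ppm N-(1-naphthyl)ethylenediamine dihydrochloride and feed with 8187 ppm pentachloronitrobenzene, a fungicide, were given to 2 groups whose chemicals are classed as negative for liver tumours, and untreated feed served as the control of all 3 feed groups. A further group was dosed by gavage, 5 days per week, with 2,3-benzofuran at 240 mg/kg in corn oil, also classed as positive, and its control received corn oil alone at 5 ml/kg. No animal was genetically modified, and the series sets out to find expression markers of liver tumours in long-term bioassays.

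Cells take up fatty acids through membrane proteins such as CD36 or free them from lipoproteins with lipoprotein lipase, and the VLDL receptor binds triglyceride-rich particles at the cell surface. Inside the cell, fatty acids are built into triglyceride and stored in droplets that are coated by perilipins and enlarged by CIDE proteins. PPAR-gamma, a nuclear receptor best known from fat cells, switches on many of these genes, and in mouse liver it is usually low and rises in fatty liver together with Cd36, Cidec and Mogat1. Apolipoprotein A-IV leaves the cell with lipoproteins and is made in the intestine and, in mice, in the liver.

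RefSeq promoter sequence was used for 7 of the 10 members, with 11 start sites, and not for Lpl, Fabp4 and Cidea. The 250 bases upstream of the start are shown for Cd36, Pparg, Vldlr and Apoa4, because each of them was called in at least 1 comparison with a control and RefSeq holds its start site. All are from build GRCm38.p6 and are written 5′ to 3′ on the strand of the gene. The Cd36 window lies at chr5:17835897-17836146 on the minus strand, the second start of Pparg at chr6:115362099-115362348, the second start of Vldlr at chr19:27216770-27217019 and Apoa4 at chr9:46240594-46240843, the last 3 on the plus strand. The Cd36 gene spans chr5:17781690-17888959, so its window belongs to an inner start, and the outermost start was not searched. Capitals mark a match to 1 of the 4 motifs that were searched.
Cd36: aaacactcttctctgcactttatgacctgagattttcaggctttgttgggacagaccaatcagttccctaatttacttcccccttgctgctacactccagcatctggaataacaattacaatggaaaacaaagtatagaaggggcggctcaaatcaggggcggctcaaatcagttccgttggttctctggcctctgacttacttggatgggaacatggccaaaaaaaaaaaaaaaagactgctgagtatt
Pparg, second start: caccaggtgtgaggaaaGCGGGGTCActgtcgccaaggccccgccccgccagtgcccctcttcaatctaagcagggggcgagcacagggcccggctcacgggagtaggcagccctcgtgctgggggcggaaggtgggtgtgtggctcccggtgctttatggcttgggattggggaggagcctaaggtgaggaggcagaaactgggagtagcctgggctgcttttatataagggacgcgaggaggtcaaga
Vldlr, second start: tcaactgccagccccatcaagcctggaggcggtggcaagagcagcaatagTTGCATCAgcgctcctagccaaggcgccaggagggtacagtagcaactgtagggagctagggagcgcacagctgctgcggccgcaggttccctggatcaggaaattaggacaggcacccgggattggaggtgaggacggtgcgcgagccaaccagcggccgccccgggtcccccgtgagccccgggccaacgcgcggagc
Apoa4: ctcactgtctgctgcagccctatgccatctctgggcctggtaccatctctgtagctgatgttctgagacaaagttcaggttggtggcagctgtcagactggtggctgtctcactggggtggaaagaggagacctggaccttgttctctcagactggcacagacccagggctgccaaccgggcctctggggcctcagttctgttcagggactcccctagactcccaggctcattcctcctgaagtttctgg

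The motifs were GCGTG, the core bound by the aryl hydrocarbon receptor, TGACNNNGC, the antioxidant response element bound by NRF2, TGATGNAA, the composite site of CHOP and ATF4, and the PPAR and RXR direct repeat, whose repeats lie 1 base apart. They were searched on both strands and do not overlap in these windows. The capitals in Pparg are an antioxidant response match on the reverse strand from -233 to -225, counted from the start site, and 10.2% of 32851 mouse promoters of the same length held this motif. The capitals in Vldlr are a match to the CHOP and ATF4 site on the reverse strand from -200 to -193, a motif held by 3.45% of promoters. The core GCGTG was in 28.2% of promoters, among them the first start of Cidec, Mogat1, Plin2 and the first start of Pparg. The direct repeat was in 0.0335% of promoters and in none of the 11 member windows. The windows of Cd36 and Apoa4 held none of the 4 motifs in these letters. A match is a run of letters, and binding was not measured here.

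Across all tested genes, the arrays of treated animals ran higher than those of controls, by a median of 0.18 for 1,5-naphthalenediamine, 0.15 for N-(1-naphthyl)ethylenediamine, 0.15 for pentachloronitrobenzene and 0.11 for 2,3-benzofuran on the log2 scale, against 0.04 between the control groups. Changes below are therefore log2 changes after subtracting this median, with the standard error of the limma fit, while calls are made on the deposited scale at a Benjamini-Hochberg adjusted p under 0.05. RNA integrity numbers were 7.7 to 8.1 on the N-(1-naphthyl)ethylenediamine arrays and 8.8 to 9.1 on the feed control arrays, and the beta-actin 3′ minus 5′ signal, which grows as RNA breaks down, was 1.45 to 1.85 and 0.90 to 0.99 on the log2 scale. Such values also occurred singly elsewhere, with an integrity number of 7.4 in corn oil control animal 24 and a beta-actin difference of 1.75 in 1,5-naphthalenediamine animal 4. The 5 arrays with the highest mean signal of the 18S ribosomal RNA probe sets, a number set beforehand, are called high-18S below. They were 1,5-naphthalenediamine animal 4 at 9.97, N-(1-naphthyl)ethylenediamine animals 12 and 14 at 10.35 and 11.56, and 2,3-benzofuran animals 6 and 10 at 10.99 and 7.93. The next array, of N-(1-naphthyl)ethylenediamine animal 15, was at 6.97. The tissue was checked through 11 hepatocyte markers, whose mean log2 signal was 13.25 to 13.49 on all 18 arrays. With whole liver, fewer cells of a type and less RNA per cell cannot be told apart. The p-values measure the spread between the animals on these arrays.

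**Figure D1:**
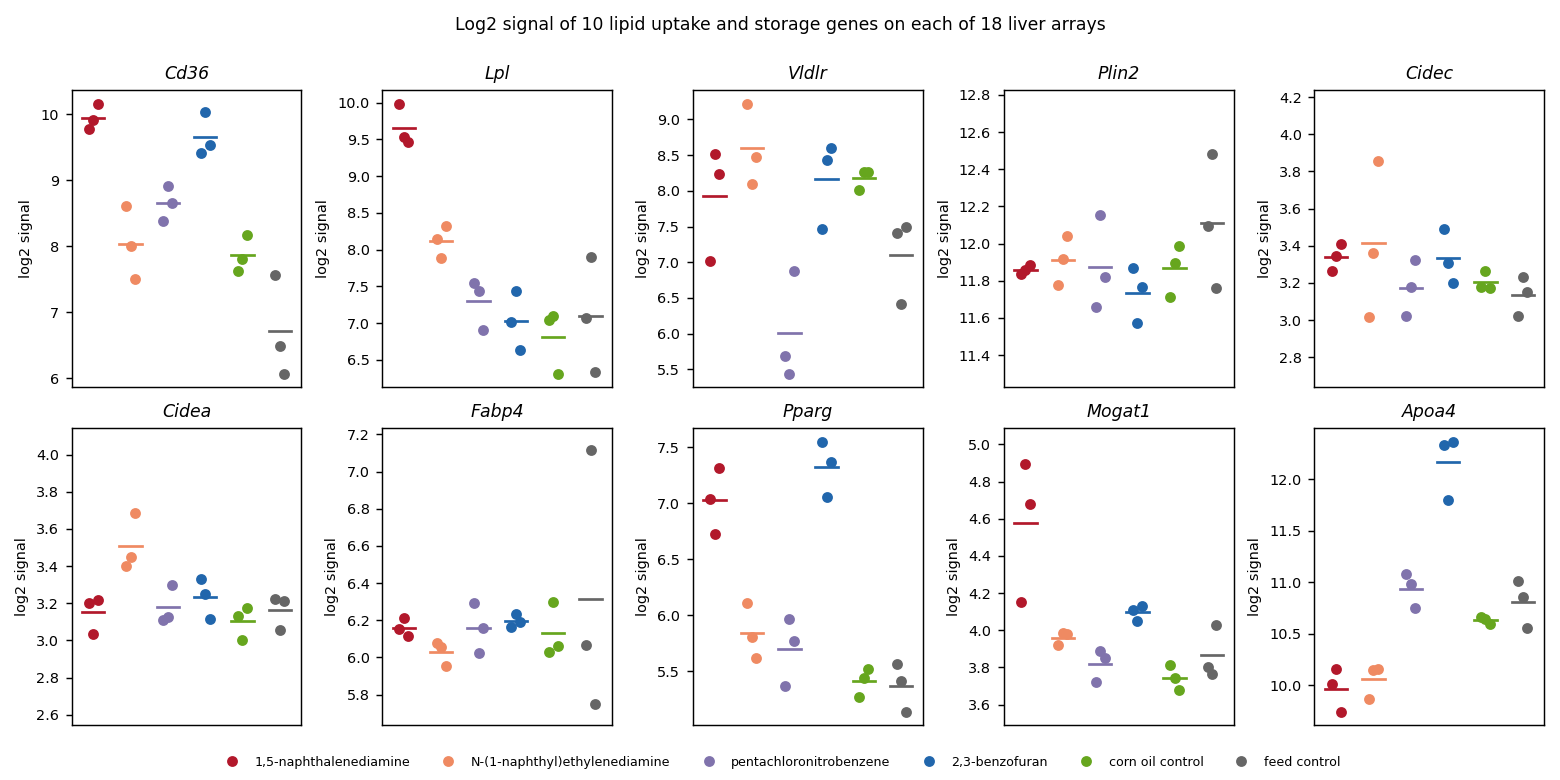
Log2 signal (y axis, own scale in each panel, at least 1.6 units tall) of the probe set that stands for each of the 10 members on each of 18 liver arrays. Points are animals, bars are means of 3, and groups run left to right as in the key. Cd36 is highest with 1,5-naphthalenediamine and 2,3-benzofuran, Lpl with 1,5-naphthalenediamine and Apoa4 with 2,3-benzofuran, while Cidec and Cidea stay between 3.00 and 3.86.

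Cd36, the fatty acid transporter also known as fatty acid translocase, rose under all 4 chemicals and most under 1,5-naphthalenediamine. Its log2 signal was 9.77, 9.90 and 10.16 in mice fed 1,5-naphthalenediamine, 8.61, 8.00 and 7.50 with N-(1-naphthyl)ethylenediamine and 8.38, 8.91 and 8.66 with pentachloronitrobenzene, against 7.57, 6.49 and 6.07 in feed controls. Every array with 1,5-naphthalenediamine or pentachloronitrobenzene lay above the highest feed control, whereas 1 array with N-(1-naphthyl)ethylenediamine lay below it. In mice dosed with 2,3-benzofuran the signal was 9.42, 10.03 and 9.54, against 7.62, 7.81 and 8.17 in corn oil controls, with no overlap. The relative change was 3.06 ± 0.31 for 1,5-naphthalenediamine (adjusted p = 1.47e-06), which is 8.35-fold. It was 1.80 ± 0.31 for pentachloronitrobenzene (adjusted p = 0.000892), 1.17 ± 0.31 for N-(1-naphthyl)ethylenediamine (adjusted p = 0.00547) and 1.69 ± 0.31 for 2,3-benzofuran (adjusted p = 0.000401). The 3 feed values rest on the same 3 control arrays, which spread over more than 1 log2 unit. Corn oil controls stood above feed controls by 1.12 ± 0.31 without overlap, but the call was not made (adjusted p = 0.171); without feed control animal 27, the highest of its group, it was made, at 1.53 (adjusted p = 0.00932).

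The other Cd36 probe sets gave the same order of chemicals for the highest and lowest change. The next brightest probe set changed by 3.12 with 1,5-naphthalenediamine, 1.40 with N-(1-naphthyl)ethylenediamine, 1.92 with pentachloronitrobenzene and 1.96 with 2,3-benzofuran. The dimmest one changed by 3.55, 1.28, 1.63 and 2.43 in the same order. On that probe set the feed controls averaged 3.92 ± 0.27 (SD, n = 3), under the lowest array median of 4.25, so they were not shown to be above background. Ranked by mean log2 signal, Cd36 was at 9.94 ± 0.20 with 1,5-naphthalenediamine, 9.66 ± 0.32 with 2,3-benzofuran, 8.65 ± 0.27 with pentachloronitrobenzene, 8.03 ± 0.56 with N-(1-naphthyl)ethylenediamine, 7.87 ± 0.28 with corn oil and 6.71 ± 0.78 with feed (SD, n = 3 each). Neighbouring groups in this order overlapped in their arrays, except 2,3-benzofuran against pentachloronitrobenzene and corn oil against feed.

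Pparg, the receptor that drives Cd36 and fat storage genes in fat cells, rose under the 2 positive carcinogens. Its log2 signal was 7.03, 6.73 and 7.32 with 1,5-naphthalenediamine, 6.11, 5.81 and 5.62 with N-(1-naphthyl)ethylenediamine and 5.37, 5.96 and 5.77 with pentachloronitrobenzene, against 5.56, 5.41 and 5.14 in feed controls. With 2,3-benzofuran it was 7.55, 7.05 and 7.36, against 5.27, 5.44 and 5.52 with corn oil. All 6 arrays of the positive carcinogens lay above all 12 others. The relative change was 1.48 ± 0.18 with 1,5-naphthalenediamine (adjusted p = 8.60e-06) and 1.80 ± 0.18 with 2,3-benzofuran (adjusted p = 1.16e-06). With N-(1-naphthyl)ethylenediamine it was 0.32 ± 0.18 without overlap (adjusted p = 0.0559), with pentachloronitrobenzene 0.18 ± 0.18 (adjusted p = 0.186), and between the controls 0.00 ± 0.18 (adjusted p = 0.966). Pparg has 1 probe set on this array that names it alone, so no second probe set was there to set beside it.

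Across the 18 arrays Pearson's r between Cd36 and Pparg was 0.86, the highest among the 21 pairs of tested members. It describes arrays that share their groups. Cd36 also differed among groups in which Pparg was not called: with pentachloronitrobenzene, Cd36 averaged 8.65 and Pparg 5.70, against 6.71 and 5.37 in feed controls.

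**Figure D2:**
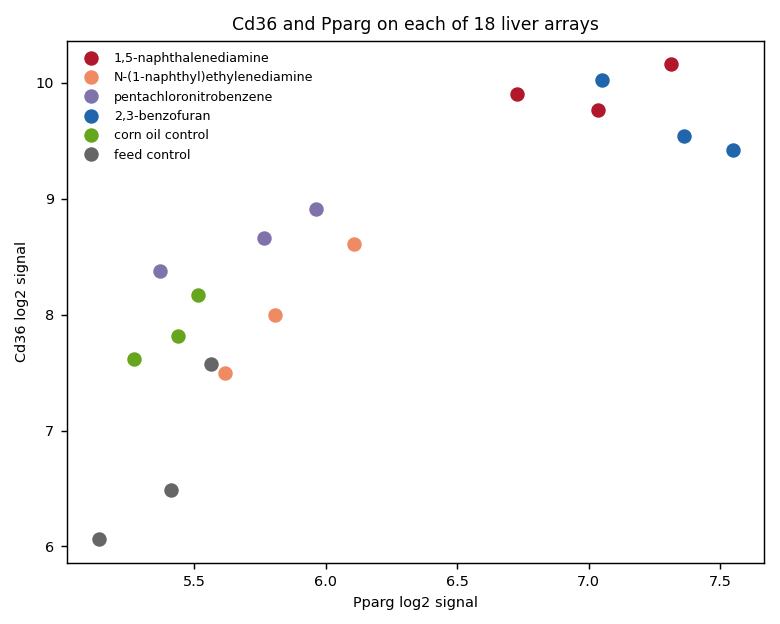
Cd36 log2 signal (y axis) against Pparg log2 signal (x axis) on each of 18 liver arrays, coloured by group. The 6 arrays of 1,5-naphthalenediamine and 2,3-benzofuran lie at a Pparg signal of 6.73 or more, and the 12 others at 6.11 or less with Cd36 between 6.07 and 8.91.

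Lpl, the lipase that frees fatty acids from circulating lipoproteins and is low in adult liver, rose most under 1,5-naphthalenediamine. The log2 signal was 9.99, 9.53 and 9.46 with 1,5-naphthalenediamine, 8.14, 7.89 and 8.32 with N-(1-naphthyl)ethylenediamine and 7.55, 7.44 and 6.91 with pentachloronitrobenzene, against 7.06, 7.91 and 6.34 in feed controls. With 2,3-benzofuran it was 7.02, 7.44 and 6.64, against 7.04, 7.09 and 6.31 with corn oil. The 1,5-naphthalenediamine arrays lay more than 1 log2 unit above every other array. Their relative change was 2.38 ± 0.31 (adjusted p = 2.35e-05), which is 5.20-fold. N-(1-naphthyl)ethylenediamine gave 0.86 ± 0.31 (adjusted p = 0.0216), with 1 array under the highest feed control. That call was lost without N-(1-naphthyl)ethylenediamine animal 12 or 15 or feed control animal 29, with a change of 0.53 and an adjusted p of 0.139 in the last case. It was also lost under quantile normalization (adjusted p = 0.0671), centring on the median tested gene (adjusted p = 0.0665) and array weights (adjusted p = 0.0794), and in 11 of 34 alternatives in all. For pentachloronitrobenzene the change was 0.05 ± 0.31 (95% interval -0.60 to 0.69, adjusted p = 0.651), and for 2,3-benzofuran 0.11 ± 0.31 (95% interval -0.54 to 0.75, adjusted p = 0.612). The second Lpl probe set changed by 2.51 with 1,5-naphthalenediamine, 0.70 with N-(1-naphthyl)ethylenediamine, 0.17 with pentachloronitrobenzene and 0.11 with 2,3-benzofuran.

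On the probe set that stands for it, Vldlr, the receptor for triglyceride-rich lipoproteins, was called only with N-(1-naphthyl)ethylenediamine among the 4 chemicals. Its probe sets differed in size of change. Its log2 signal was 7.02, 8.52 and 8.23 with 1,5-naphthalenediamine, 9.22, 8.09 and 8.48 with N-(1-naphthyl)ethylenediamine and 5.69, 5.44 and 6.88 with pentachloronitrobenzene, against 7.42, 6.41 and 7.50 in feed controls. With 2,3-benzofuran it was 7.46, 8.44 and 8.60, against 8.02, 8.27 and 8.26 with corn oil. The N-(1-naphthyl)ethylenediamine arrays lay wholly above feed controls, and the other 3 treated groups overlapped with their controls. The relative change was 1.33 ± 0.42 with N-(1-naphthyl)ethylenediamine (adjusted p = 0.0152), 0.64 ± 0.42 with 1,5-naphthalenediamine (adjusted p = 0.125), -1.25 ± 0.42 with pentachloronitrobenzene (adjusted p = 0.0697) and -0.12 ± 0.42 with 2,3-benzofuran (adjusted p = 0.983). The call with N-(1-naphthyl)ethylenediamine was lost in 10 of 34 alternatives. Among these were quantile normalization (adjusted p = 0.0590), pooled controls (0.82, adjusted p = 0.0899) and leaving out its animal 12 (1.03, adjusted p = 0.0843) or feed control animal 28 (0.95, adjusted p = 0.0605). Corn oil controls stood 1.03 ± 0.42 above feed controls without overlap (adjusted p = 0.415). The probe set that stands for Vldlr is of a type that can share sequence with other transcripts. The next brightest changed by 1.72 with N-(1-naphthyl)ethylenediamine, 1.13 with 1,5-naphthalenediamine and -0.27 with pentachloronitrobenzene. In a limma fit of all probe sets that name 1 gene, it was called with N-(1-naphthyl)ethylenediamine (adjusted p = 0.00312) and also with 1,5-naphthalenediamine (adjusted p = 0.0124). An alternative left out all probe sets with the suffix _s_at, _x_at or _a_at, which also removes this next brightest one, an _a_at probe set. The suffix _a_at can mark transcripts of the same gene, so this removal does not show shared sequence. Vldlr is then represented by a dim probe set with a mean of 4.89 over the arrays. Its change with N-(1-naphthyl)ethylenediamine was then 0.35 (adjusted p = 0.213).

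A clock gene also differed between these groups. Dbp, an output gene of the circadian clock, had a log2 signal of 9.45, 10.10 and 10.23 with N-(1-naphthyl)ethylenediamine, against 4.00, 4.11 and 7.53 in feed controls. It was also high in pentachloronitrobenzene animal 20 at 9.17, the highest Vldlr of its group, and in corn oil animals 24 and 25 at 10.08 and 10.33. Benzofuran animals 6, 8 and 10 had Dbp at 4.59, 4.33 and 5.15, with Vldlr at 7.46, 8.44 and 8.60. Corn oil animal 22 had Dbp at 5.40 and Vldlr at 8.02, against Vldlr at 8.27 and 8.26 in animals 24 and 25. An effect of the clock on Vldlr was not tested. With Dbp as a covariate, an alternative chosen after seeing the data, Vldlr changed by 0.45 with N-(1-naphthyl)ethylenediamine (adjusted p = 0.325) and by -1.36 with pentachloronitrobenzene (adjusted p = 0.0228), so that the first call was lost and the second made. The calls made for Cd36, Lpl, Pparg and Apoa4 with the positive carcinogens were kept in that fit.

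**Figure D3:**
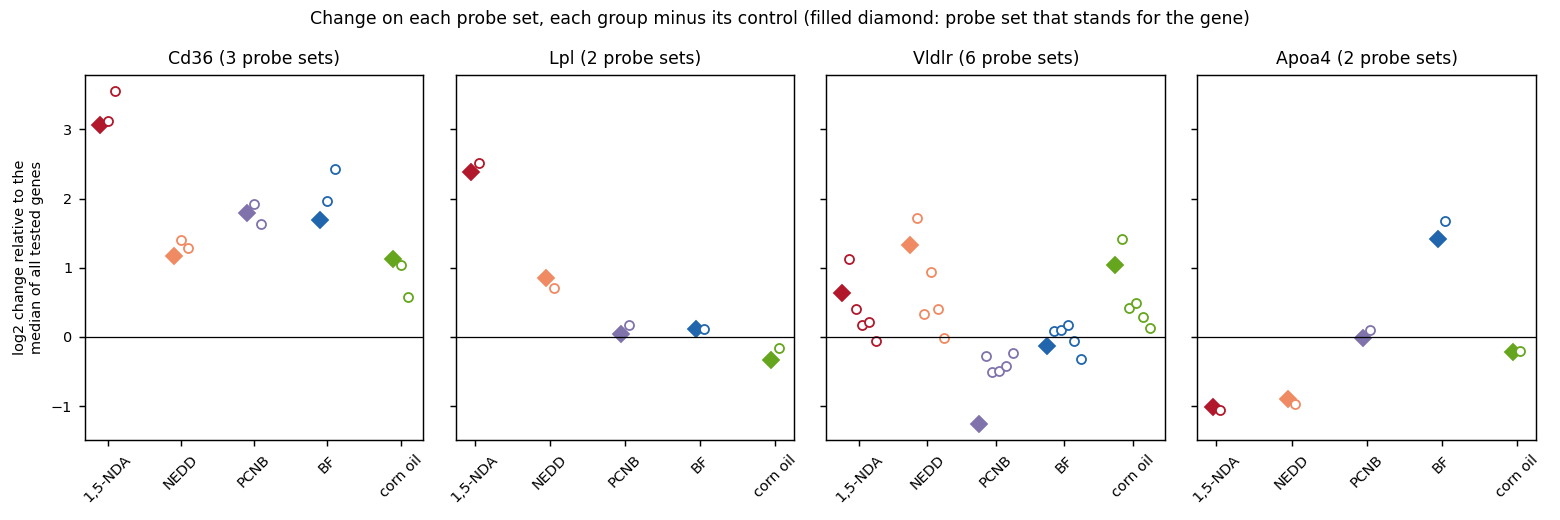
Log2 change relative to the median of all tested genes (y axis) on each probe set of Cd36, Lpl, Vldlr and Apoa4 in 5 comparisons (x axis): 1,5-naphthalenediamine (1,5-NDA), N-(1-naphthyl)ethylenediamine (NEDD) and pentachloronitrobenzene (PCNB) minus feed control, 2,3-benzofuran (BF) minus corn oil control, and corn oil minus feed control. The probe sets of Cd36, Lpl and Apoa4 lie close together, and those of Vldlr spread from -0.01 to 1.72 with N-(1-naphthyl)ethylenediamine. The Vldlr probe sets at -0.01 and 0.41 with N-(1-naphthyl)ethylenediamine were under the lowest array median in every group, so both are weak readings of a change.

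The droplet coat gene Plin2 was abundant, and no comparison with a control was called on the deposited scale. Its log2 signal was 11.84, 11.86 and 11.88 with 1,5-naphthalenediamine, 11.78, 11.92 and 12.04 with N-(1-naphthyl)ethylenediamine and 11.66, 12.15 and 11.82 with pentachloronitrobenzene, against 12.09, 12.48 and 11.76 in feed controls. With 2,3-benzofuran it was 11.87, 11.57 and 11.77, against 11.71, 11.90 and 11.99 with corn oil. All groups overlapped with their controls. Relative to the median gene, Plin2 was at -0.43 ± 0.15 with 1,5-naphthalenediamine (adjusted p = 0.171), -0.35 ± 0.15 with N-(1-naphthyl)ethylenediamine (adjusted p = 0.307), -0.38 ± 0.15 with pentachloronitrobenzene (adjusted p = 0.237) and -0.24 ± 0.15 with 2,3-benzofuran (adjusted p = 0.510). Centring each array on its median tested gene made the first 3 of these calls lower, at adjusted p = 0.00861, 0.0355 and 0.0319.

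Fabp4, a fatty acid carrier of fat cells and macrophages, was level on 17 arrays, with log2 signals between 5.75 and 6.30, and stood at 7.12 in feed control animal 28. The same animal had the highest Plin2, at 12.48, the highest Lpl of its group, at 7.91, and an Adipoq signal of 4.12, against 2.60 to 3.15 on the other 17 arrays. Adipoq encodes the fat cell hormone adiponectin, and its signal was under the lowest array median of 4.25 on every array. Group means of Fabp4 were 6.16 ± 0.05 with 1,5-naphthalenediamine, 6.03 ± 0.07 with N-(1-naphthyl)ethylenediamine and 6.16 ± 0.13 with pentachloronitrobenzene, against 6.31 ± 0.71 in feed controls (SD, n = 3 each). They were 6.20 ± 0.03 with 2,3-benzofuran and 6.13 ± 0.15 with corn oil. No comparison of Fabp4 was called, with adjusted p between 0.331 and 0.833 in the 5 comparisons. Without feed control animal 28 its relative change was 0.04 with 1,5-naphthalenediamine, 0.07 with pentachloronitrobenzene and 0.14 between corn oil and feed, against -0.33, -0.30 and -0.22 with that animal. Without this animal the changes of Lpl and Cd36 with 1,5-naphthalenediamine kept their calls. Vldlr lost its call with N-(1-naphthyl)ethylenediamine (0.95, adjusted p = 0.0605) and gained one with pentachloronitrobenzene (-1.64, adjusted p = 0.0318).

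Cidec and Cidea, which fuse and enlarge lipid droplets, were not above background in any group. Cidec lay between 3.02 and 3.86 and Cidea between 3.00 and 3.68 on the log2 scale, and no array had either above its own median. For these genes the arrays give only a bound, and no fold is given. If the filter was dropped, limma called Cidea higher with N-(1-naphthyl)ethylenediamine (adjusted p = 0.0147), at signals that were not above background. Mogat1, which adds a fatty acid to monoacylglycerol on the way to triglyceride, was above the array median on 2 of 18 arrays, both from mice fed 1,5-naphthalenediamine. The log2 signal was 4.15, 4.90 and 4.68 with 1,5-naphthalenediamine, 3.92, 3.98 and 3.98 with N-(1-naphthyl)ethylenediamine and 3.72, 3.89 and 3.85 with pentachloronitrobenzene, against 3.80, 3.77 and 4.03 in feed controls. With 2,3-benzofuran it was 4.11, 4.05 and 4.13, against 3.81, 3.74 and 3.68 with corn oil. The 1,5-naphthalenediamine arrays did not overlap with feed controls, and the 2,3-benzofuran arrays did not overlap with corn oil controls. With no filter, limma called Mogat1 higher with 1,5-naphthalenediamine (adjusted p = 0.000922). Apart from 1,5-naphthalenediamine, with a mean of 4.57 ± 0.38 (SD, n = 3), its group means lay under the lowest array median of 4.25, so no fold is given.

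Apoa4, an apolipoprotein of triglyceride-rich particles and HDL, moved in opposite directions under the positive carcinogens. Its log2 signal was 10.01, 10.16 and 9.74 with 1,5-naphthalenediamine, 9.87, 10.15 and 10.16 with N-(1-naphthyl)ethylenediamine and 11.08, 10.99 and 10.75 with pentachloronitrobenzene, against 11.01, 10.86 and 10.56 in feed controls. With 2,3-benzofuran it was 12.33, 11.80 and 12.36, against 10.66, 10.64 and 10.60 with corn oil. The first 2 feed groups lay wholly below their controls, and the 2,3-benzofuran group wholly above its own. The relative change was 1.42 ± 0.15 with 2,3-benzofuran (adjusted p = 1.55e-06), which is 2.68-fold. Apoa4 fell by 1.02 ± 0.15 with 1,5-naphthalenediamine (adjusted p = 0.000513) and by 0.90 ± 0.15 with N-(1-naphthyl)ethylenediamine (adjusted p = 0.00256), and its change was -0.02 ± 0.15 with pentachloronitrobenzene (95% interval -0.33 to 0.29, adjusted p = 0.531). The second probe set changed by 1.68 with 2,3-benzofuran, -1.05 with 1,5-naphthalenediamine, -0.97 with N-(1-naphthyl)ethylenediamine and 0.11 with pentachloronitrobenzene. Apoa5, a neighbour of Apoa4 that activates lipoprotein lipase, moved the other way with 2,3-benzofuran, at -0.48 ± 0.10 (adjusted p = 0.0107).

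**Figure D4:**
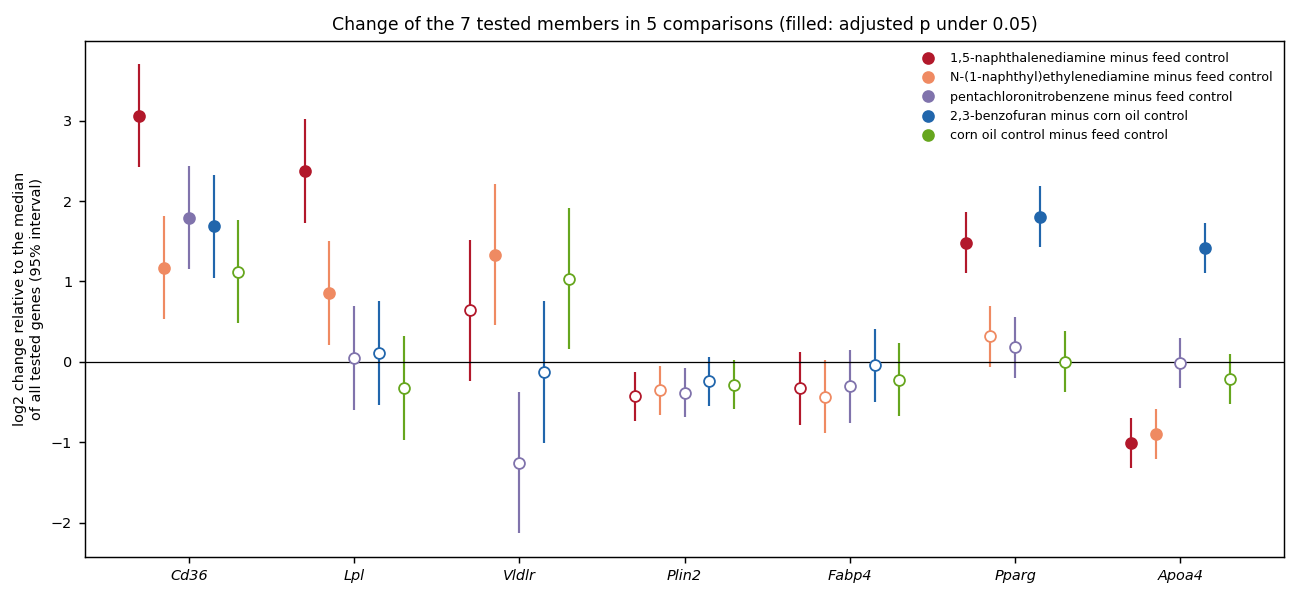
Log2 change relative to the median of all tested genes (y axis) of the 7 tested members (x axis) in 5 comparisons, with 95% intervals of the limma fit over 18 arrays. Filled points have an adjusted p under 0.05 on the deposited scale. Cd36 is filled for all 4 chemicals, Pparg for 1,5-naphthalenediamine and 2,3-benzofuran, and Apoa4 is below 0 for the first and above 0 for the second.

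Counted by chemical, 1,5-naphthalenediamine raised 3 of the 7 tested members (Cd36, Lpl, Pparg) and lowered Apoa4, when 39.9% of all tested genes were called, 31.5% higher and 8.41% lower. The arrays of 4 members did not overlap with feed controls, against 46.5% of all tested genes. 2,3-Benzofuran raised 3 (Cd36, Pparg, Apoa4) and lowered none, against 32.3% of all tested genes called, 24.8% higher and 7.58% lower, and 3 did not overlap, against 49.2%. Pentachloronitrobenzene raised Cd36 alone of the 7, against 18.5% of all tested genes called, 14.6% higher and 3.87% lower, and 1 did not overlap, against 38.2%. N-(1-naphthyl)ethylenediamine raised 3 (Cd36, Lpl, Vldlr) and lowered Apoa4, against 29.1% called, 24.7% higher and 4.37% lower, and 3 did not overlap, against 38.2%. Between corn oil and feed controls none of the 7 was called, against 0.123% of all tested genes, and Cd36 and Vldlr did not overlap, against 11.1%. In that comparison Cd36 and Vldlr were the members with an unadjusted p under 0.05. The median relative change of the 7 members was 0.64, 0.11, -0.02, 0.32 and -0.22 in the order of these sentences, where that of all tested genes is 0 by construction. With 7 members these shares do not set them apart from all tested genes.

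The 4 calls with N-(1-naphthyl)ethylenediamine went together with the lower RNA integrity of its arrays. With the beta-actin 3′ minus 5′ signal as a covariate none of them was called, at 1.04 for Cd36 (adjusted p = 0.164), 1.40 for Lpl (adjusted p = 0.0870), 0.35 for Vldlr (adjusted p = 0.587) and -0.99 for Apoa4 (adjusted p = 0.0775). That fit called 0.362% of all tested genes. Without the 5 arrays with a high 18S signal, which leaves 1 array of this group and takes its spread from the other groups, none was called either, with adjusted p between 0.0566 for Apoa4 and 0.267 for Cd36. After centring the count was again 4, but Plin2, called lower, took the place of Lpl. RNA integrity and this chemical cannot be told apart by these arrays alone. The calls with 1,5-naphthalenediamine, pentachloronitrobenzene and 2,3-benzofuran named above were kept in all alternatives that gave a value for them.

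Set directly against each other, 1,5-naphthalenediamine gave higher levels than N-(1-naphthyl)ethylenediamine at the same feed concentration for 3 of the 7 members, against 5.47% of all tested genes called, 3.51% higher and 1.96% lower. Both are amines of naphthalene: the first carries its amino groups on the ring, and the second carries an ethylenediamine chain bound through its nitrogen to a ring carbon. The difference was 1.91 ± 0.31 for Cd36 (adjusted p = 0.00108), 1.54 ± 0.31 for Lpl (adjusted p = 0.00608) and 1.18 ± 0.18 for Pparg (adjusted p = 0.000769). These genes and Fabp4 had no overlap between the 2 groups, against 25.1% of all tested genes. RNA integrity numbers were 8.8 to 8.9 with 1,5-naphthalenediamine and 7.7 to 8.1 with N-(1-naphthyl)ethylenediamine. Chemical and RNA quality therefore cannot be told apart here. N-(1-naphthyl)ethylenediamine was fed as a dihydrochloride, so equal ppm need not be an equal molar dose. Apoa4 differed by -0.09 ± 0.15 (95% interval -0.40 to 0.22, adjusted p = 0.778), Plin2 by -0.05 ± 0.15 (95% interval -0.36 to 0.26, adjusted p = 0.885) and Vldlr by -0.67 ± 0.42 (95% interval -1.55 to 0.21, adjusted p = 0.389).

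Pentachloronitrobenzene was fed at a higher concentration than the other feed chemicals, so its differences from them join chemical and dose. Against it, 1,5-naphthalenediamine was higher in 4 members and lower in 1, when 4.03% of all tested genes were called, 2.2% higher and 1.82% lower, and 5 did not overlap, against 23.9%. Lpl differed by 2.33 ± 0.31 (adjusted p = 0.000118), Vldlr by 1.89 ± 0.42 (adjusted p = 0.0122), Pparg by 1.30 ± 0.18 (adjusted p = 0.000182), Cd36 by 1.26 ± 0.31 (adjusted p = 0.0201) and Apoa4 by -0.998 ± 0.148 (adjusted p = 0.000578). N-(1-naphthyl)ethylenediamine differed from pentachloronitrobenzene in Vldlr, by 2.56 ± 0.42 (adjusted p = 0.00155), and in Apoa4, by -0.91 ± 0.15 (adjusted p = 0.00237), against 2.69% of all tested genes called, 1.06% higher and 1.63% lower. The arrays of 3 members did not overlap, against 26.3% of all tested genes. Its Cd36 was 0.65 ± 0.31 lower without a call (adjusted p = 0.307), and the arrays overlapped. RNA integrity numbers were 8.4 to 8.8 with pentachloronitrobenzene, so RNA quality is joined to the chemical in that comparison too.

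The change with 2,3-benzofuran was also compared with that of each feed chemical, each against its own control, in which route, dosing days, vehicle and chemical cannot be told apart. It exceeded the change with 1,5-naphthalenediamine by 2.40 ± 0.21 for Apoa4 (adjusted p = 2.91e-06) and fell short of it by 2.31 ± 0.43 for Lpl, a difference of -2.31 (adjusted p = 0.0135), when 0.961% of all tested genes were called, 0.362% higher and 0.6% lower. For Cd36 the difference was -1.42 ± 0.43 (adjusted p = 0.142), and for Pparg 0.28 ± 0.26 (95% interval -0.25 to 0.82, adjusted p = 0.777). Pparg changed more with 2,3-benzofuran than with N-(1-naphthyl)ethylenediamine, by 1.47 ± 0.26 (adjusted p = 0.00293), and than with pentachloronitrobenzene, by 1.58 ± 0.26 (adjusted p = 0.00143). Apoa4 did so by 2.31 ± 0.21 (adjusted p = 3.41e-06) and 1.40 ± 0.21 (adjusted p = 0.000730), and the comparison with N-(1-naphthyl)ethylenediamine called 5.59% of all tested genes, 2.52% higher and 3.07% lower, and that with pentachloronitrobenzene 2.89%, 1.27% higher and 1.63% lower. No other member was called in either. Taking the mean change of the positive carcinogens over that of the negative chemicals, Pparg was higher by 1.38 ± 0.16 (adjusted p = 1.87e-05) and Apoa4 by 0.65 ± 0.13 (adjusted p = 0.00373), against 7.2% of all tested genes called, 3.8% higher and 3.39% lower. The mean for Apoa4 joins a fall with 1,5-naphthalenediamine and a rise with 2,3-benzofuran. Cd36 was at 0.88 ± 0.26 (adjusted p = 0.0512) and Lpl at 0.78 ± 0.27 (adjusted p = 0.0860).

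Other genes of the same pathways were read from 7 lists. Calls in most lists ran upward on the deposited scale, as over all genes, and many turned or were lost once arrays were centred on their median tested gene, so both counts are given and the genes named kept their call under centring and quantile normalization unless stated. With the beta-actin covariate, no gene of any of the 7 lists was called with N-(1-naphthyl)ethylenediamine, whatever its count below. Over all tested genes, the share of calls that were higher was 78.9% for 1,5-naphthalenediamine, 85.0% for N-(1-naphthyl)ethylenediamine, 79.1% for pentachloronitrobenzene and 76.5% for 2,3-benzofuran on the deposited scale, 50.1%, 55.0%, 41.0% and 54.1% after quantile normalization, and 27.1%, 26.7%, 16.1% and 34.3% after centring. Among 16 tested genes for droplet proteins other than the members, 1,5-naphthalenediamine gave 6 higher and 0 lower calls, and 2 and 0 after centring. Fitm1, an endoplasmic reticulum protein that helps to bud off lipid droplets, rose by 1.74 ± 0.16 (adjusted p = 3.02e-07), with mean log2 signals of 7.99 and 6.08 in treated and feed control mice, and its relative Fitm2 by 0.65 ± 0.14 (adjusted p = 0.000493). Fitm1 also rose with 2,3-benzofuran, by 1.09 ± 0.16 (adjusted p = 4.34e-05), where 6 genes of the list were called higher and 0 lower, against 2 and 1 after centring. It was called higher as well with N-(1-naphthyl)ethylenediamine, by 0.51 ± 0.16 (adjusted p = 0.00668), and pentachloronitrobenzene, by 0.48 ± 0.16 (adjusted p = 0.0154), and both of these calls were lost after centring. N-(1-naphthyl)ethylenediamine gave 7 higher and 0 lower calls, and 1 and 1 after centring, and pentachloronitrobenzene gave 1 and 0, and none after centring.

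Of 15 tested genes of fatty acid uptake and binding, 3 were called higher and 0 lower with 1,5-naphthalenediamine, and 1 and 6 after centring. N-(1-naphthyl)ethylenediamine gave 3 and 0, and 1 and 3 after centring, and pentachloronitrobenzene 1 and 0, and 0 and 1 after centring. With 2,3-benzofuran 2 were higher and 5 lower, and 1 and 8 after centring. Slc27a4, a fatty acid transport protein, was called higher with all 4 chemicals like Cd36, by 0.34 with 1,5-naphthalenediamine, 0.44 with N-(1-naphthyl)ethylenediamine, 0.20 with pentachloronitrobenzene and 0.36 with 2,3-benzofuran, but under centring only the call with N-(1-naphthyl)ethylenediamine was kept. That call was in turn lost with the beta-actin covariate. With 2,3-benzofuran the fatty acid binding proteins Fabp5 and Fabp2 fell by 1.76 ± 0.42 (adjusted p = 0.00694) and 0.77 ± 0.18 (adjusted p = 0.0113), whereas Acsl4, an acyl-CoA synthetase that prefers arachidonic acid, rose by 0.86 ± 0.16 (adjusted p = 0.000257). Acsl4 rose by 0.45 ± 0.16 with 1,5-naphthalenediamine (adjusted p = 0.00514). Of 16 tested lipase regulators and lipoprotein receptors, 4 were higher and 0 lower with 1,5-naphthalenediamine, and 1 and 3 after centring. Apoc2, the cofactor that lipoprotein lipase needs, rose by 0.48 ± 0.09 (adjusted p = 0.000117), in the group where Lpl was highest. With N-(1-naphthyl)ethylenediamine the counts were 6 and 0, and 1 and 1 after centring, and pentachloronitrobenzene 2 and 0, and none after centring. With 2,3-benzofuran 2 were higher and 4 lower, and 0 and 5 after centring, among them Angptl8, an inhibitor of the lipase, at -1.07 ± 0.35 (adjusted p = 0.0408), and Lrp1, a lipoprotein receptor, at -0.60 ± 0.11 (adjusted p = 0.00355).

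Of 15 tested lipolysis genes, 9 were higher and 0 lower with 1,5-naphthalenediamine, and 4 and 2 after centring. The carboxylesterase Ces1g rose by 0.75 ± 0.13 (adjusted p = 7.30e-05) and the monoacylglycerol hydrolase Abhd6 by 0.60 ± 0.12 (adjusted p = 0.000240). Pentachloronitrobenzene gave 5 and 0, and 1 and 1 after centring, with Ces1g at 0.67 ± 0.13 (adjusted p = 0.000794). With 2,3-benzofuran 6 were higher and 1 lower, and 3 and 3 after centring, and Mgll, the monoacylglycerol lipase, rose by 0.61 ± 0.14 (adjusted p = 0.000899). Pnpla2, the adipose triglyceride lipase, rose by 0.89 ± 0.18 with N-(1-naphthyl)ethylenediamine (adjusted p = 0.00134), where 7 were higher and 0 lower, 2 and 1 after centring, and 0 and 0 with the beta-actin covariate. Of 18 tested genes of triglyceride synthesis, 6 were higher and 1 lower with 1,5-naphthalenediamine, and 2 and 4 after centring, and Gpam, which starts glycerolipid synthesis in mitochondria, rose by 0.56 ± 0.10 (adjusted p = 0.000106). The counts with N-(1-naphthyl)ethylenediamine were 8 and 0, and 2 and 3 after centring, and pentachloronitrobenzene 1 and 1, and 0 and 1 after centring. With 2,3-benzofuran 7 were higher and 2 lower, and 3 and 3 after centring, and Plpp2, a lipid phosphate phosphatase, rose by 0.86 ± 0.15 (adjusted p = 0.000173).

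Among 20 tested partners of PPAR-gamma and other regulators, 6 were higher and 0 lower with 1,5-naphthalenediamine, and 2 and 4 after centring. The coactivator Ppargc1a rose by 1.54 ± 0.36 (adjusted p = 0.00164) and the xenobiotic receptor Nr1i3 by 0.56 ± 0.11 (adjusted p = 0.000123). There were 10 higher and 1 lower with N-(1-naphthyl)ethylenediamine, 6 and 2 after centring, and 0 and 0 with the beta-actin covariate, and Ppargc1a rose by 1.68 ± 0.36 there (adjusted p = 0.00245), where Pparg was not called. Pentachloronitrobenzene gave 4 and 0, and 1 and 0 after centring, with Nr1i3 at 0.48 ± 0.11 (adjusted p = 0.00203). With 2,3-benzofuran 2 were higher and 2 lower, and 0 and 4 after centring, and Srebf1, the regulator of fatty acid synthesis, was at -0.82 ± 0.24 (adjusted p = 0.0307). Of 14 tested genes of triglyceride export, 5 were higher and 1 lower with 1,5-naphthalenediamine, and 0 and 5 after centring. Apob, the structural protein of VLDL, was at -0.56 ± 0.13 (adjusted p = 0.0210). With the beta-actin covariate the counts for this chemical were 3 higher and 0 lower, so the Apob call was lost. N-(1-naphthyl)ethylenediamine gave 3 and 0, and 1 and 2 after centring, and pentachloronitrobenzene 2 and 0, and 0 and 1 after centring. With 2,3-benzofuran 5 were higher and 1 lower, and 2 and 2 after centring, and P4hb, a subunit of the triglyceride transfer protein, rose by 0.44 ± 0.07 (adjusted p = 5.80e-05).

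**Figure D5:**
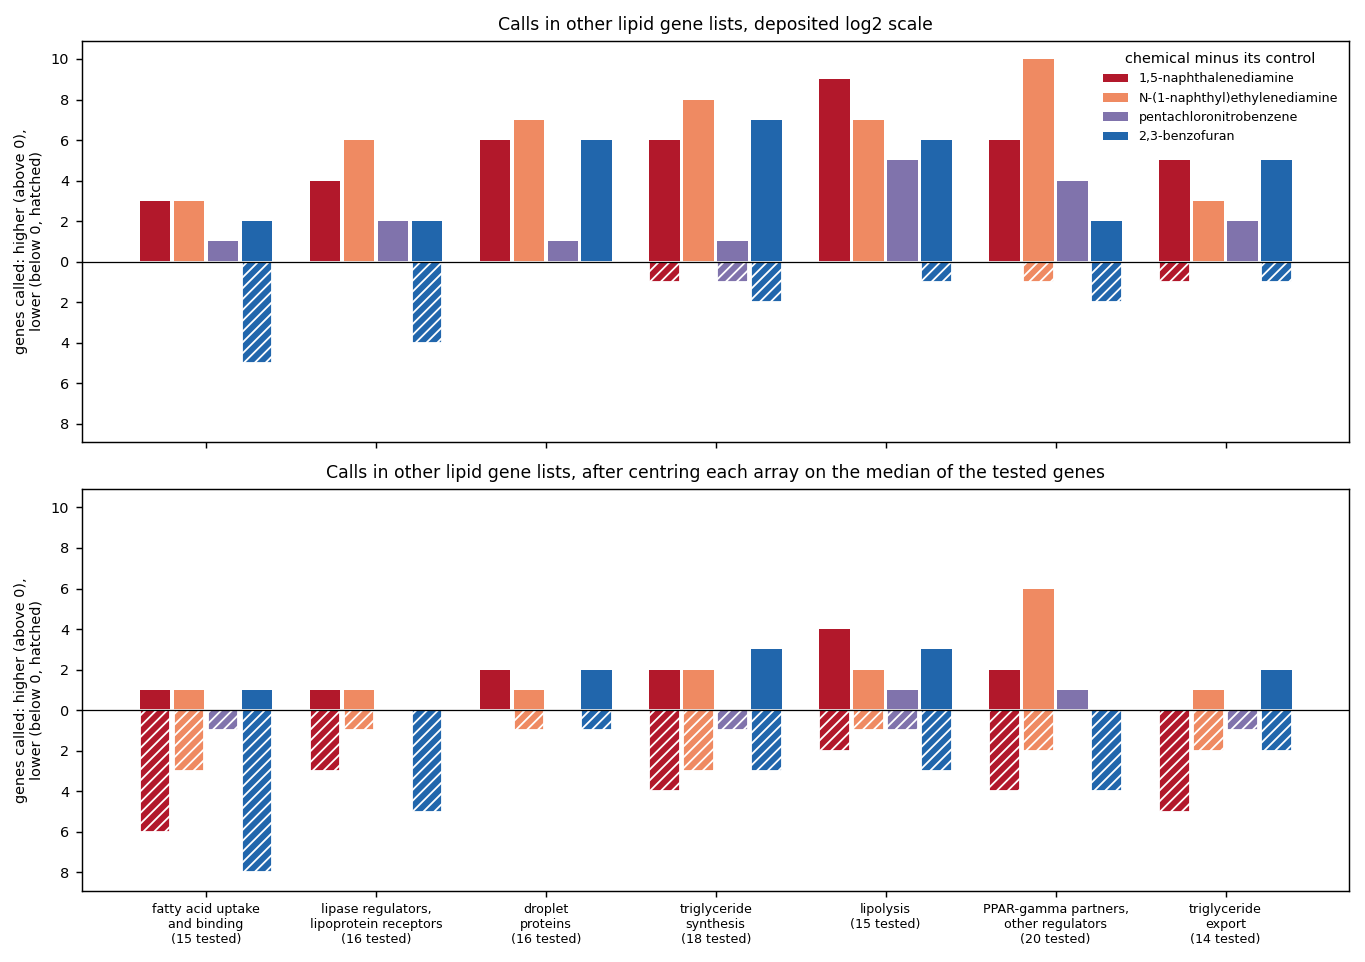
Number of genes called higher (bars above 0) and lower (hatched bars below 0) at an adjusted p under 0.05 in 7 lists of lipid genes (x axis, number tested in brackets), for each chemical against its own control. The upper panel uses the deposited log2 scale and the lower panel arrays centred on their median tested gene, where most higher calls are gone and lower calls appear.

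The genes whose log2 signal followed each member most closely over the 18 arrays were named by Pearson's r as a description of arrays that share their groups. For Cd36 they were Pctp, a phosphatidylcholine transfer protein, at 0.96, Pir at 0.96 and Mcee at 0.96. For Pparg they were the haem transporter Slc48a1 at 0.96, the lipid peroxide reductase Gpx4 at 0.95 and the biliverdin reductase Blvrb at 0.95. For Lpl they were Itih5 at 0.89, Egln3 at 0.87 and Gpx6 at 0.87, and for Apoa4 Dnase2a at 0.88, Nucb2 at 0.87 and Psat1, an enzyme of serine synthesis, at 0.86. Psat1 averaged 6.40 with 2,3-benzofuran and 3.25 with corn oil, and group means of 3.15 to 3.28 held elsewhere. The closest genes of Vldlr, Plin2 and Fabp4 reached 0.80 (Ppp2r5e), 0.80 (Slc25a30) and 0.76 (Otulinl). Between members, Lpl and Apoa4 had an r of -0.58, Plin2 and Fabp4 0.52 and Cd36 and Lpl 0.47.

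Markers of other cells that express members were read beside these results. Of 12 fat cell markers 9 were on the array, with a mean log2 signal of 4.77 to 5.19 over the arrays, and 4 or 5 of them, Adipoq and Lep included, lay under the lowest array median in each group. Pck1, 1 of the 9, averaged 11.71 with 2,3-benzofuran and 12.34 with corn oil, far above the list. The fat cell mean is lifted by this bright gene and does not measure fat cells alone. Of 20 macrophage markers 19 were on the array, with a mean of 6.44 to 6.91 with 1,5-naphthalenediamine, 6.81 to 7.09 with N-(1-naphthyl)ethylenediamine and 6.85 to 7.22 with pentachloronitrobenzene, against 6.58 to 7.04 in feed controls. It was 6.55 to 6.88 with 2,3-benzofuran, against 6.88 to 7.12 with corn oil. The 15 endothelial markers had a mean of 6.47 to 6.86 over the arrays. Of 11 muscle markers, a tissue rich in Lpl and Cd36, 7 lay under the lowest array median in every group, with a mean of 3.75 to 3.80 with 1,5-naphthalenediamine, against 4.03 to 4.12 in feed controls. Cd36 and Lpl were highest with 1,5-naphthalenediamine. There the marker means were 4.90 for fat cells and 6.65 for macrophages, against 5.05 and 6.83 in feed controls. Single markers of these cells went both ways on the deposited scale. Lipe and Cd14 were called higher (limma, adjusted p = 0.0138 and 0.00426), and Retn, Slc2a4, Vsig4 and Csf1r were called lower. With the beta-actin covariate, 0 fat cell markers were called higher and 2 lower, and 1 macrophage marker was called higher and 0 lower. The calls of Lipe, Vsig4 and Csf1r were thus lost. A contribution of other cells to the Cd36 and Lpl signals was not tested.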

How the data were processed

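Liver RNA of 18 mice was measured on Affymetrix mouse arrays, 1 per animal. The deposited values are log2 signals made by the authors, and how they corrected background, normalized arrays and summarised probes is not stated in the labels. The labels' protocols name RNAlater, Trizol, RNeasy and 10 ug of biotin-labelled material. Signal over background limits dim probe sets, and 3 arrays per group limit the precision.

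Of 45101 probe sets, 34945 name 1 gene in the platform annotation, 932 several and 9160 none, and 34741 were found in RefSeq by Entrez identifier. Probe sets above their array's median on at least 3 of 18 arrays were kept, and the brightest of a gene on average represented it. Group means were estimated in limma 3.58.1 under R 4.3.3 from all 18 arrays in 6 groups (empirical Bayes with a mean-variance trend, 12 residual degrees of freedom), and each of 12 contrasts was adjusted over 12169 genes by Benjamini-Hochberg. Levels below 4.25, the lowest array median, were taken as not above background. The fit was tested on simulated data. All members were named, with the 3 genes most correlated with each. From the other lists, up to 2 called genes per direction and comparison could be named by size of change, and most of those named were picked, after their values were seen, for keeping their call under both scalings. Apoa5, Dbp, Adipoq, Psat1, Nucb2 and Gpx6 levels were also read after values were seen. Members and lists were chosen with earlier results of these data known. Plots used matplotlib 3.10.9 and Python 3.11.15.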

Additional observations from a re-analysis of the deposited data

How the results depend on the processing

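No paired analysis was possible because no animal number is shared between groups. The 7 tested members were recomputed in the 5 comparisons with or between controls under 16 other settings, and with each of 18 arrays left out. Of these settings, the Dbp covariate was chosen after seeing the data, and pooled controls give no comparison between controls. The setting without shared-sequence probe sets drops the suffixes _s_at, _x_at and _a_at, the last of which can mark transcripts of the same gene. For the other comparisons only the number of members called was recomputed. Of 543 values under other settings 491 kept direction and side of the threshold, and of 630 with 1 array left out 599 did. The 8 calls with 1,5-naphthalenediamine, 2,3-benzofuran and pentachloronitrobenzene against controls were kept wherever a value was obtained. The causes of the changes below were not tested.

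With N-(1-naphthyl)ethylenediamine against feed, 4 members were called, against 1 with RNA integrity as a covariate, 0 with the beta-actin covariate or without the 5 arrays of high 18S, 2 at an adjusted p under 0.01 and 2 at a change of at least 1. With pentachloronitrobenzene against feed the count of 1 became 3 after centring and 2 with the beta-actin or Dbp covariate or pooled controls. Between 1,5-naphthalenediamine and N-(1-naphthyl)ethylenediamine 3 became 5 without the filter, which lets in the dim members Cidec, Cidea and Mogat1. Between 1,5-naphthalenediamine and pentachloronitrobenzene 5 became 3 without shared-sequence probe sets, without the high-18S arrays or at 0.01. Between N-(1-naphthyl)ethylenediamine and pentachloronitrobenzene 2 became 1 without shared-sequence probe sets, with either of the beta-actin and Dbp covariates or at a change of at least 1, and 0 without the high-18S arrays. The 2 calls of 2,3-benzofuran against 1,5-naphthalenediamine became 1 with RNA integrity, without the high-18S arrays or at 0.01, against N-(1-naphthyl)ethylenediamine 1 without shared-sequence probe sets, with RNA integrity or Dbp or without the high-18S arrays, and against pentachloronitrobenzene 1 without shared-sequence probe sets or the high-18S arrays. Positive against negative chemicals went to 4 with the mean of all probe sets or array weights, and to 1 with RNA integrity or Dbp, without the high-18S arrays or at a change of at least 1.

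Leaving out 1 array gave 4 to 5 members called with 1,5-naphthalenediamine, 2 to 5 with N-(1-naphthyl)ethylenediamine (2 without its animal 12), 1 to 2 with pentachloronitrobenzene, 3 to 3 with 2,3-benzofuran and 0 to 1 between corn oil and feed (1 without feed control animal 27). It gave 3 to 5 between 1,5-naphthalenediamine and pentachloronitrobenzene and 2 to 4 for positive against negative chemicals.

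Uncalled values near 0 changed sign. With pentachloronitrobenzene, Lpl was -0.016 with a filter on a mean of at least 6 and -0.080 with array weights (-0.27 to 0.42 leaving out 1 array), Apoa4 was 0.069 with the mean of all probe sets, 0.11 without shared-sequence probe sets and 0.095 with pooled controls (-0.087 to 0.073), and Fabp4 ran from -0.52 to 0.066. With 2,3-benzofuran, Vldlr was 0.12 without shared-sequence probe sets, 0.081 with RNA integrity, 0.60 with Dbp, 0.15 without the high-18S arrays and 0.38 with pooled controls (-0.33 to 0.23), Fabp4 was 0.034 with RNA integrity (-0.080 to 0.032), and Lpl was -0.44 with Dbp and -0.064 with pooled controls (-0.15 to 0.31). Between corn oil and feed, Pparg was 0.030 with quantile normalization, 0.0017 with the mean of all probe sets, 0.0022 with the beta-actin covariate and 0.040 with Dbp (-0.070 to 0.075), Lpl was 0.15 with Dbp (-0.66 to 0.039), and Fabp4 ran from -0.45 to 0.14. With 1,5-naphthalenediamine, Fabp4 ran from -0.54 to 0.040.

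The share of all tested genes called moved by over 1.5 times as well. For 1,5-naphthalenediamine 39.9% became 24.3% with quantile normalization, 22.6% with only its own groups in the fit, 22.8% without the high-18S arrays, 21.3% at 0.01 and 1.45% at a change of at least 1. For N-(1-naphthyl)ethylenediamine 29.1% became 14.4% with quantile normalization, 2.89% with RNA integrity, 0.362% with the beta-actin covariate, 16.8% with Dbp and 4.35% without the high-18S arrays. For pentachloronitrobenzene 18.5% became 7.33% with quantile normalization and 3.29% with only its own groups, and 5.39% to 20.6% leaving out 1 array. For 2,3-benzofuran 32.3% became 15.7% with Dbp and 7.28% without the high-18S arrays.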
